A study of Mus musculus with 12 samples.

Results

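The levels of 10 genes of the NF-kappaB system and of its inflammatory outputs were examined in mouse collecting duct cells. They were taken by gene symbol from the deposited gene table, and all 10 members were found among its 45777 genes: the transcription factor subunits Nfkb1, Nfkb2, Rela and Relb, the inhibitors and feedback genes Nfkbia, Tnfaip3 and Birc3, the intracellular sensor Nod2, the complement component C3 and the interleukin-1 receptor antagonist Il1rn. All 10 were also among the 15932 genes with enough counts to be tested. Messenger RNA was sequenced from 12 libraries of mpkCCDc11, an immortalised line of the mouse kidney cortical collecting duct, the tubule segment in which vasopressin controls water reabsorption. The study asked how TAZ, the Hippo pathway coactivator encoded by Wwtr1, acts on the water channel aquaporin-2. There were 4 groups of 3 libraries: TAZ siRNA with dDAVP, TAZ siRNA with vehicle, control siRNA with dDAVP and control siRNA with vehicle. The desmopressin compound dDAVP, an agonist of the vasopressin V2 receptor, was applied at 1e-09 M to the basolateral side.

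All 4 groups were cells of 1 line on permeable filters, transfected with an siRNA and kept without serum and hormones before dDAVP or vehicle. The labels give the TAZ siRNA cells as a TAZ knockdown and the control siRNA cells as WT. They list several exposure times to dDAVP without saying which one these libraries had. Whether replicates are separate cultures is not stated, so p-values reflect only the spread among the 3 libraries within a group, which may be technical. For each gene, 1 estimate of that spread was shared by the 4 groups and drawn towards that of other genes.

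NF-kappaB factors are dimers of Rel proteins that rest in the cytoplasm, bound to inhibitors of the IkappaB family. Receptors for tumour necrosis factor, interleukin-1 and microbial products activate IkappaB kinases, the inhibitor is degraded, and the dimer enters the nucleus. Among its targets are its own inhibitors, which end the response, and in the kidney tubule chemokines, complement C3 and other inflammatory genes. The activity of the factors is set largely at the protein level, which messenger RNA does not measure.

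The 250 bases before and 50 bases after an annotated gene start are printed for 5 members: the members that were called in 3 or 4 comparisons (Nfkbia, Nod2 and C3), Il1rn, and Nfkb2, the subunit gene with a call in both siRNA comparisons. The windows come from RefSeq on build GRCm38.p6, 5′ to 3′ on the strand of the gene, and 8 of the 10 members had at least 1 window, 13 in all. Capitals mark each match, on either strand, of GGG and CC with any 5 bases between them, a loose form of the kappaB site to which NF-kappaB dimers bind. Overlapping matches run together. The windows lie at chr12:55492598-55492897 (minus strand) for Nfkbia, chr8:88647097-88647396 (plus strand) for Nod2 and chr17:57228087-57228386 (minus strand) for C3. That of Nfkb2 lies at chr19:46304487-46304786 (plus strand), the first of its 3 windows. That of Il1rn lies at chr2:24336610-24336909 (plus strand), also the first of 3 windows.
Nfkb2: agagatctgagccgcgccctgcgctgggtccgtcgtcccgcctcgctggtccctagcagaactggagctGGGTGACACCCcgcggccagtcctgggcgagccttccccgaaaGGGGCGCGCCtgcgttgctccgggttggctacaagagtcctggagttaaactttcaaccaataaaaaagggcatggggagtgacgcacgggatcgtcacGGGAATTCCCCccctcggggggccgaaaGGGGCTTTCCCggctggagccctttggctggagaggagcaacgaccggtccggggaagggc
Nfkbia: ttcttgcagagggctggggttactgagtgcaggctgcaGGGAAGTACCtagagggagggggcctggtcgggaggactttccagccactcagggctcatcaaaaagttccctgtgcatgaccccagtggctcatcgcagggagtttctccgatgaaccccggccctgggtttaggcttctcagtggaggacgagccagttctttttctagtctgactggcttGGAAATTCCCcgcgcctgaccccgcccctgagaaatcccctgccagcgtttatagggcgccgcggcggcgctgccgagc
Nod2: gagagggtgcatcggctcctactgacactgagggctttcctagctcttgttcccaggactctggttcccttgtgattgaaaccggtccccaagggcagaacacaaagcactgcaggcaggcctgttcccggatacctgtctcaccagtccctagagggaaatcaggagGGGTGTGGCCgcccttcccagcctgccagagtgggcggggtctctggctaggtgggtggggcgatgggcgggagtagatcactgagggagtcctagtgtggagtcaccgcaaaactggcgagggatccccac
C3: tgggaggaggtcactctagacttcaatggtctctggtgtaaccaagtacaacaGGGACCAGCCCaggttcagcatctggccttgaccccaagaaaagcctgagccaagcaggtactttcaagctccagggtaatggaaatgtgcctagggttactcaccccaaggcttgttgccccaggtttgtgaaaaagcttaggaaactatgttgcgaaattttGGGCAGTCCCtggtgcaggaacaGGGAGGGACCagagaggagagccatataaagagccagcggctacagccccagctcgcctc
Il1rn: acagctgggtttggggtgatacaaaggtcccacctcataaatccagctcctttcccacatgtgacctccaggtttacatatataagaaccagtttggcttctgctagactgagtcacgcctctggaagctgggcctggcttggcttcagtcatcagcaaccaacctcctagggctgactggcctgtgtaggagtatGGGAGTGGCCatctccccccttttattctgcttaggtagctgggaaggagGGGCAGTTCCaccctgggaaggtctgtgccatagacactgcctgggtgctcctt

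That loose form occurred in 50.8% of all 32851 mouse promoter windows and in each of the 13 member windows, so its presence alone says little. The stricter classical kappaB consensus, which adds purine and pyrimidine positions, occurred in 8.46% of windows. It was found in the 3 windows of Nfkb2, in that of Nfkbia and in 1 of the 2 windows of Tnfaip3. In Nfkbia the match was GGAAATTCCC at bases -29 to -20 from the start, and in the first Nfkb2 window GGGAATTCCC lay at -39 to -30. The printed windows of Nod2, C3 and Il1rn held no such letters, and neither did those of Rela and Birc3. The full cAMP response element TGACGTCA, present in 1.79% of windows, was in none of the 13 member windows. Its shorter core TGACG, present in 20.8% of windows, was in windows of Nfkb2 and Tnfaip3 only. TTNNGNAA, a loose form of the site of C/EBP factors found in 40.7% of windows, had matches at 3 positions in the C3 window, 1 of them on both strands, and none in those of Nod2 and Nfkbia. GGAATG, the core of the TEAD site through which TAZ reaches DNA and found in 14.7% of windows, was in 1 window each of Nfkb2 and Il1rn. Both strands were searched, a match is a description of letters, and other sites outside these windows were not searched.

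Library totals ran from 45095331 to 61725339 counts, and levels are given as CPM, counts scaled to the library total, after TMM scaling. The siRNA target Wwtr1 averaged 114 ± 10.7 CPM with TAZ siRNA and dDAVP, against 166 ± 6.62 CPM with control siRNA and dDAVP, and 116 ± 2.51 CPM with TAZ siRNA and vehicle, against 181 ± 4.42 CPM with control siRNA and vehicle (SD, n = 3 each; adjusted p = 5.54e-06 and 4e-06). Aqp2 averaged 11.0 CPM with TAZ siRNA and dDAVP and 0.0484 CPM with TAZ siRNA and vehicle, and 34.7 CPM with control siRNA and dDAVP and 0.340 CPM with control siRNA and vehicle. The V2 receptor gene Avpr2 averaged 35.1, 23.8, 45.0 and 29.5 CPM in the same order of groups. All 10 principal cell markers had counts in every group. The Aqp2 mean with TAZ siRNA and vehicle lay below the level of 3 counts in those libraries (0.0486 to 0.0494 CPM). The Aqp2 log2 fold change for dDAVP with TAZ siRNA ran from 7.19 to 12.3 when 1 library was left out. Of the immune markers, Adgre1, Itgam and Cd3e were at 0 in all 4 groups, as were the fibroblast markers Col1a2, Dcn and Lum. Other markers of these lists had counts: 3 of the 8 immune and 3 of the 6 fibroblast markers had enough to be tested. The fibroblast markers summed to 4.67 to 5.82 CPM with TAZ siRNA and dDAVP and 6.02 to 7.16 with TAZ siRNA and vehicle. With control siRNA they summed to 4.44 to 5.35 CPM with dDAVP and 5.26 to 6.49 with vehicle. In bulk libraries, fewer cells of a type and less RNA per cell cannot be told apart.

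Set per gene length, in the authors' TPM values, which divide counts by transcript length, averaged over the 12 libraries, the member with the highest mean was C3 at 225 TPM (133 to 348), followed by Nfkbia at 173 (152 to 190.2), Rela at 144 (132 to 155), and Nfkb2 and Nfkb1 at 102 each (83.4 to 116 and 97.4 to 105). A lower tier held Relb at 17.0 TPM (13.2 to 20.6), Tnfaip3 at 9.81 (8.28 to 11.6), Il1rn at 8.84 (5.11 to 13.6) and Nod2 at 4.30 (1.66 to 8.16). Birc3 was lowest at 0.256 TPM (0.126 to 0.412). The ranges of C3, Nfkbia and Rela overlap, as do those of Nfkb2 and Nfkb1, and those of neighbours from Relb to Nod2 in this order except Relb and Tnfaip3. C3 was the highest of them in the dDAVP groups only, at 274 ± 29.2 TPM with TAZ siRNA and 333 ± 20.01 with control siRNA (SD, n = 3 each). In vehicle C3 averaged 148 ± 15.6 TPM with TAZ siRNA, below Nfkbia at 157 ± 5.04 and Rela at 154 ± 1.35, and 146 ± 2.32 TPM with control siRNA, below Nfkbia at 169.9 ± 2.21 and beside Rela at 145 ± 1.93. From here on, values are CPM, which compare libraries but not genes.

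Exposure to dDAVP raised Nod2, C3 and Nfkbia with either siRNA. Nod2 was 3.03 times the vehicle level with TAZ siRNA and 4.09 times with control siRNA, C3 was 1.95 and 2.39 times, and Nfkbia was 1.16 and 1.15 times. With TAZ siRNA, 3 members were called higher and 0 lower, where 10.8% of tested genes were called, 6.38% higher and 4.41% lower (1016 and 703 genes, but 809 higher and 854 lower without the filter on low counts). With control siRNA, 4 members were called higher, Il1rn being the fourth, and 2 lower (Rela and Tnfaip3), where 19.2% of tested genes were called, 9.72% higher and 9.48% lower. A call is an adjusted p under 0.05 in the edgeR quasi-likelihood test, adjusted by Benjamini-Hochberg over all tested genes. The median log2 fold change was 0.01 over the 10 members and -0.00085 over all tested genes with TAZ siRNA, and 0.15 over the members and -0.0012 over all tested genes with control siRNA.

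TAZ siRNA against control siRNA lowered Nod2, C3 and Nfkbia in the presence of dDAVP, with 2 members called higher (Nfkb2 and Rela) and 3 lower, where 10.7% of tested genes were called, 5.77% higher and 4.97% lower (919 and 792 genes, but 675 higher and 857 lower without the filter). In vehicle, 3 members were called higher (Nfkb2, Relb and Il1rn) and 1 lower (Nfkbia), where 6.3% of tested genes were called, 3.19% higher and 3.11% lower. Members' median log2 fold changes were -0.01 in dDAVP and 0.0037 in vehicle, beside 0.0025 and 0.0017 over all tested genes. No member was called for a difference between the dDAVP responses of the siRNAs by edgeR, where 0.0314% of tested genes were called (5 genes, 0.0126% higher and 0.0188% lower). At an unadjusted p under 0.05 this contrast held 1295 genes and 3 members (Nod2, C3 and Il1rn), and DESeq2 called 77 genes and 1 member, Il1rn. Each of the 2 dDAVP comparisons shares 3 libraries with each of the 2 siRNA comparisons, so calls in them are not independent of each other.

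**Figure D1:**
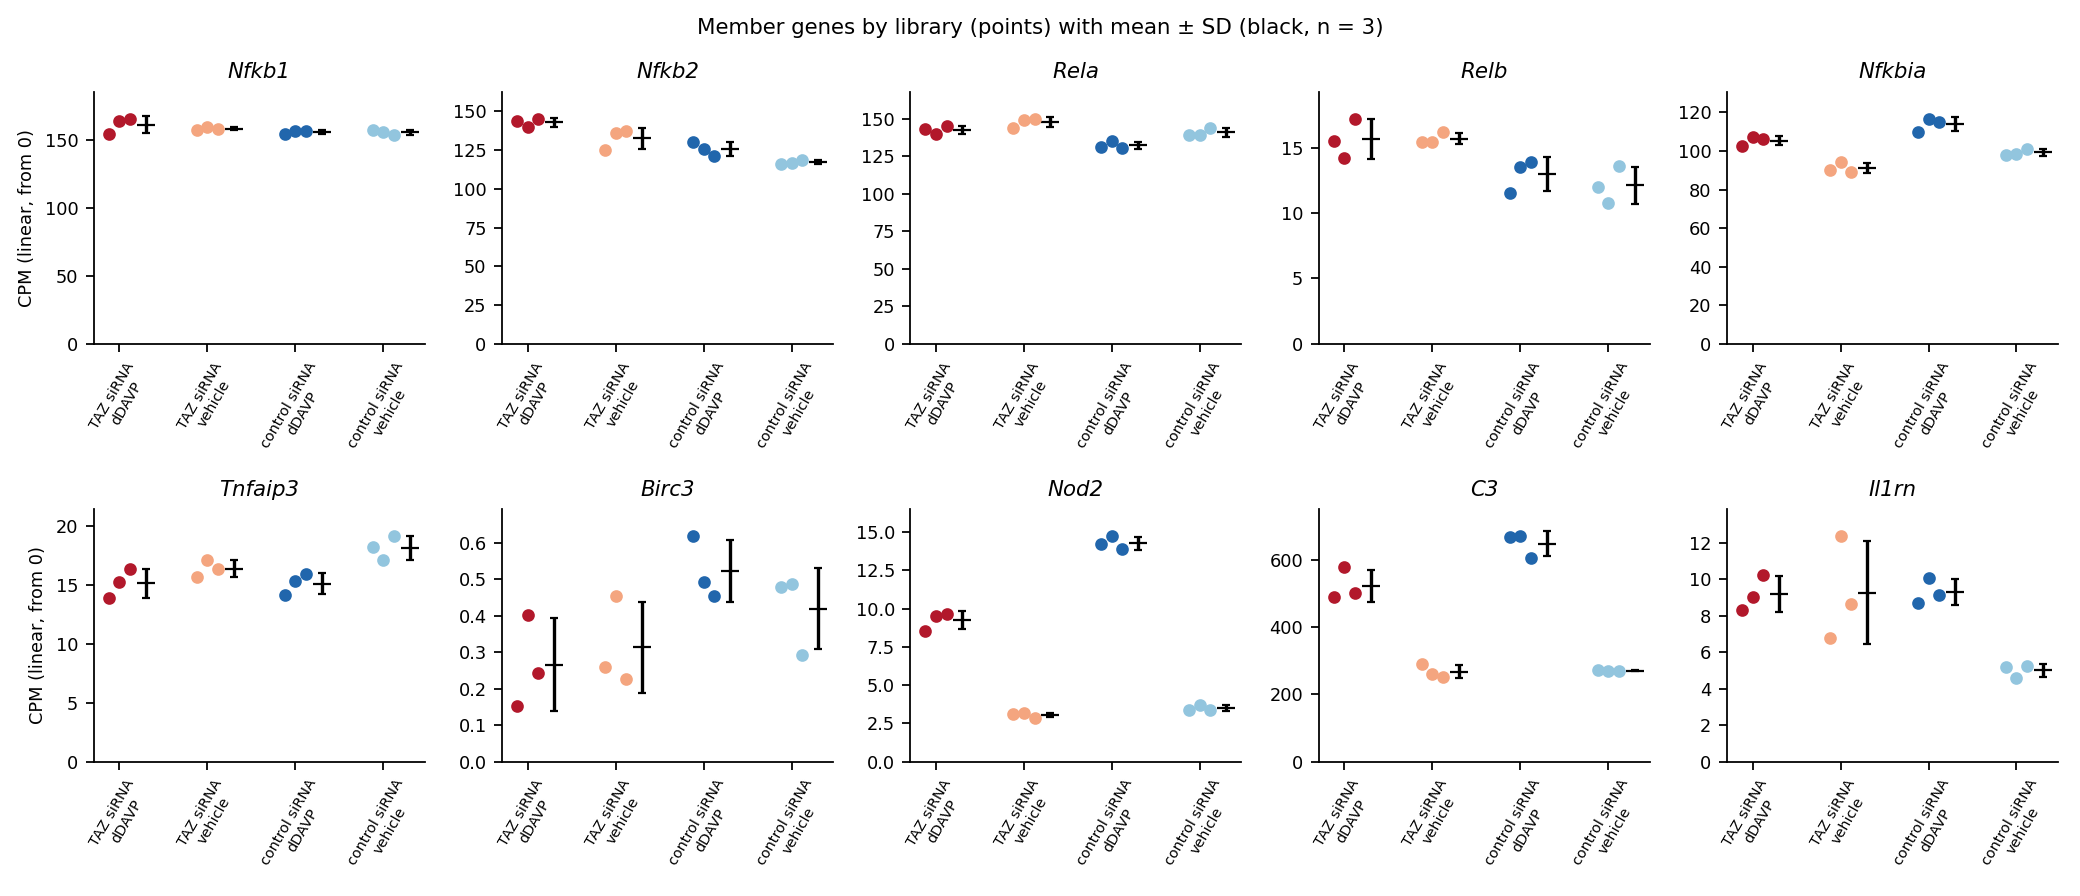
Level of each member in CPM on a linear axis from 0, by group, with 1 point per library and the mean ± SD in black (n = 3). Nod2 and C3 are high in the dDAVP groups, higher with control siRNA than with TAZ siRNA, and Il1rn is low in the 3 libraries with control siRNA and vehicle.

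**Figure D2:**
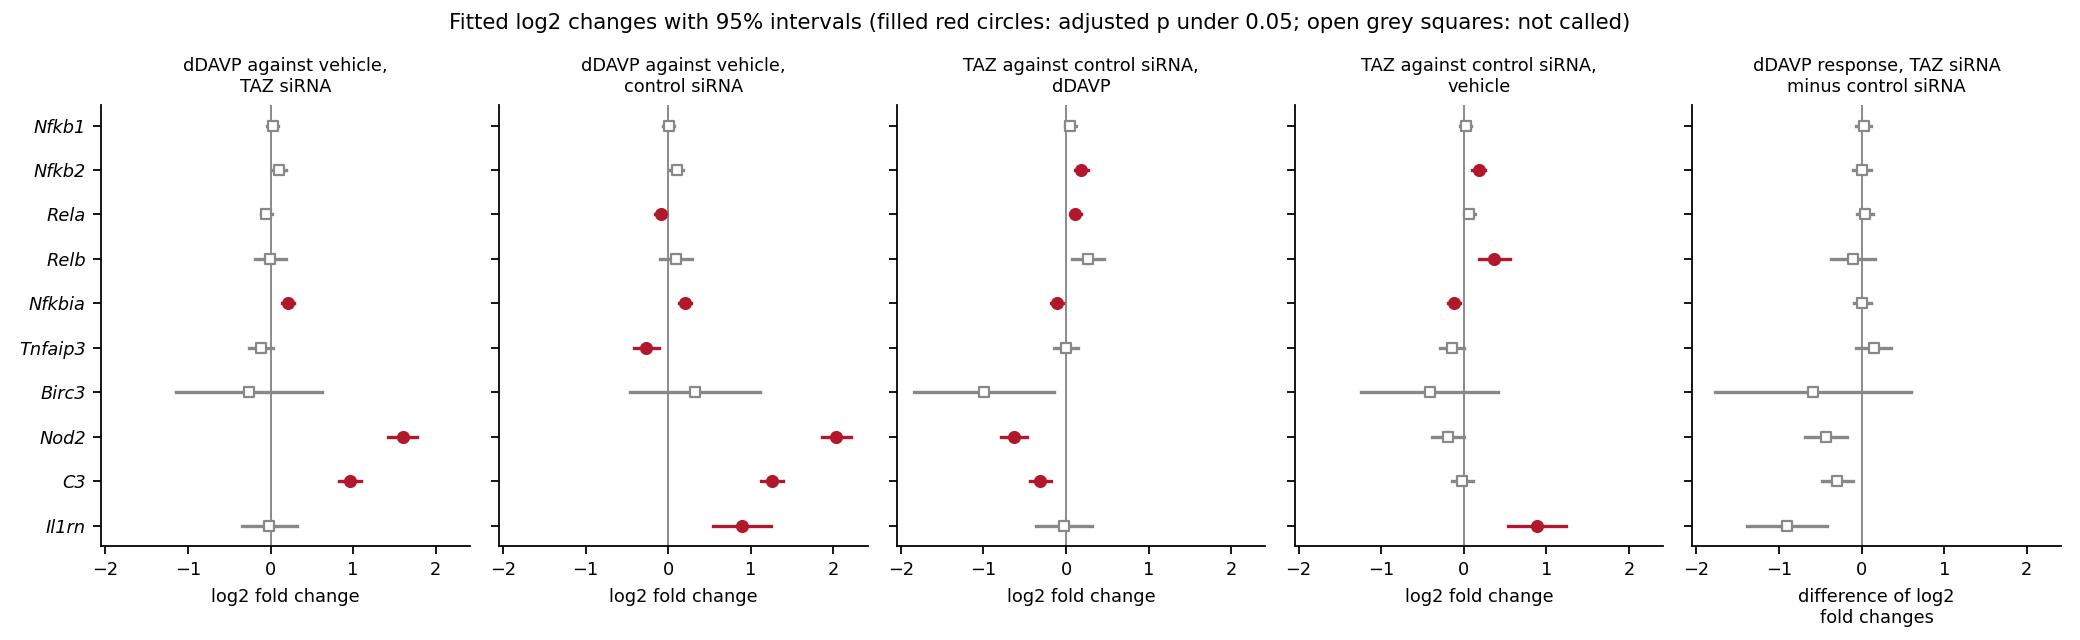
Log2 fold changes of the 10 members with 95% intervals in the 4 comparisons, and the difference between the dDAVP responses on the right, all on 1 scale. Filled red circles mark an adjusted p under 0.05, and the widest interval is that of Birc3.

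Among the factor genes, Nfkb1 encodes p105, the precursor of the p50 subunit of the classical dimer (gene identifier 18033, chr3:135584655-135691969 on mm10). Nfkb1 was at 154, 164 and 166 CPM with TAZ siRNA and dDAVP and at 157, 159 and 158 with TAZ siRNA and vehicle. It was at 154, 157 and 157 CPM with control siRNA and dDAVP and at 157, 156 and 154 with control siRNA and vehicle. The groups overlapped, except that the TAZ siRNA vehicle libraries lay above those with control siRNA and dDAVP, and no comparison called Nfkb1. Its fold was 1.02 for dDAVP with TAZ siRNA (95% interval 0.974 to 1.07) and 1.00 with control siRNA (0.957 to 1.05).

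Nfkb2 encodes p100, the precursor of p52 in the alternative pathway, and is an established target of NF-kappaB itself (gene identifier 18034, chr19:46300994-46312400). Nfkb2 was at 143, 139.8 and 145 CPM with TAZ siRNA and dDAVP and at 125, 136 and 138 with TAZ siRNA and vehicle. It was at 129.8, 126 and 121 CPM with control siRNA and dDAVP and at 116, 117 and 119 with control siRNA and vehicle. Within each treatment, the 3 TAZ siRNA libraries lay above the 3 control siRNA libraries. The log2 fold change of TAZ siRNA against control siRNA was 0.18 ± 0.04 in dDAVP (adjusted p = 0.00397) and 0.18 ± 0.04 in vehicle (adjusted p = 0.00854). The vehicle call was lost without TAZ siRNA vehicle replicate 2 (adjusted p = 0.0688) or replicate 3 (adjusted p = 0.0582). For dDAVP against vehicle, Nfkb2 had a log2 fold change of 0.11 ± 0.04 with TAZ siRNA (adjusted p = 0.0859) and 0.10 ± 0.04 with control siRNA (adjusted p = 0.0767), neither of which was a call. With only the compared groups in the fit, the control siRNA comparison gave an adjusted p of 0.0425. Nfkb2 overlaps Psd and 4833438C02Rik in the annotation, and the sources used here do not state whether strand was used in counting.

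Rela encodes p65, the subunit of the classical dimer that activates transcription (gene identifier 19697, chr19:5637442-5648134). Rela was at 143, 139.7 and 145 CPM with TAZ siRNA and dDAVP and at 144, 149 and 150.01 with TAZ siRNA and vehicle. It was at 131, 135 and 130.3 CPM with control siRNA and dDAVP and at 139, 139 and 144 with control siRNA and vehicle. The 3 libraries with control siRNA and dDAVP were the lowest of the 12. Rela fell by 0.09 on the log2 scale with dDAVP in control siRNA cells (SE 0.03, adjusted p = 0.0489), and was higher by 0.11 ± 0.03 with TAZ siRNA than with control siRNA in dDAVP (adjusted p = 0.0298). Both calls sit close to the threshold. The first was lost without any 1 of the 6 compared libraries other than control siRNA dDAVP replicate 2 (adjusted p from 0.0716 to 0.171), with size factors of DESeq2 in place of TMM (0.0507), without the filter on low counts (0.0858) and with only the compared groups fitted (0.0681). The second was lost without any 1 of the 6 compared libraries other than TAZ siRNA dDAVP replicate 2 (adjusted p from 0.0532 to 0.137), without the filter (0.0825) and with only the compared groups fitted (0.0518).

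Relb encodes the partner of p52 in the alternative pathway (gene identifier 19698, chr7:19606217-19629438). Relb was at 15.5, 14.2 and 17.2 CPM with TAZ siRNA and dDAVP and at 15.4, 15.4 and 16.2 with TAZ siRNA and vehicle. It was at 11.5, 13.5 and 13.9 CPM with control siRNA and dDAVP and at 12.01, 10.7 and 13.6 with control siRNA and vehicle. All 6 TAZ siRNA libraries lay above all 6 control siRNA libraries. The log2 fold change of TAZ siRNA against control siRNA was 0.37 ± 0.09 in vehicle (adjusted p = 0.0206), and 0.27 ± 0.09 in dDAVP, which missed the threshold (adjusted p = 0.0693). The vehicle call ended without TAZ siRNA vehicle replicate 2 or 3, or without replicate 1 or 2 of the control siRNA vehicle group (adjusted p from 0.0688 to 0.0949). In dDAVP the adjusted p was 0.0423 with DESeq2 and 0.0374 without TAZ siRNA dDAVP replicate 2. For dDAVP against vehicle the fold was 0.996 with TAZ siRNA (95% interval 0.874 to 1.13) and 1.07 with control siRNA (0.935 to 1.22).

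Nfkbia encodes IkappaB-alpha, the inhibitor that holds the classical dimer in the cytoplasm and is resynthesised as an NF-kappaB target (gene identifier 18035, chr12:55489409-55492647). Its promoter window is the one printed with GGAAATTCCC close to the start. Nfkbia was at 103, 107 and 106 CPM with TAZ siRNA and dDAVP and at 90.1, 94.3 and 89.1 with TAZ siRNA and vehicle. It was at 109.9, 117 and 115 CPM with control siRNA and dDAVP and at 98.1, 98.4 and 101 with control siRNA and vehicle. The 4 groups did not overlap, and ran in the order control siRNA with dDAVP, TAZ siRNA with dDAVP, control siRNA with vehicle and TAZ siRNA with vehicle. The log2 fold change of dDAVP against vehicle was 0.21 ± 0.03 with TAZ siRNA (adjusted p = 5e-04) and 0.20 ± 0.03 with control siRNA (adjusted p = 0.000438), and these calls held without any 1 library.

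The difference between those 2 responses of Nfkbia was 0.0092 on the log2 scale (adjusted p = 0.985), a ratio of 1.01 with a 95% interval from 0.937 to 1.08. For TAZ siRNA against control siRNA, Nfkbia fell by 0.11 in dDAVP (SE 0.03, adjusted p = 0.0437) and by 0.12 in vehicle (SE 0.03, adjusted p = 0.0435). The dDAVP call was lost without control siRNA dDAVP replicate 2 or 3 and without TAZ siRNA dDAVP replicate 1 or 3 (adjusted p from 0.0858 to 0.14). The vehicle call was lost without any 1 of the 6 compared libraries other than TAZ siRNA vehicle replicate 2 (adjusted p from 0.0596 to 0.149), without the filter on low counts (0.0839) and with only the compared groups fitted (0.0711).

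Tnfaip3 encodes A20, a ubiquitin-editing enzyme that shuts off signalling upstream of the IkappaB kinases (gene identifier 21929, chr10:19000910-19015410). Tnfaip3 was at 13.9, 15.2 and 16.3 CPM with TAZ siRNA and dDAVP and at 15.7, 17.1 and 16.4 with TAZ siRNA and vehicle. It was at 14.1, 15.3 and 15.9 CPM with control siRNA and dDAVP and at 18.2, 17.1 and 19.1 with control siRNA and vehicle. Between treatments of 1 siRNA, only the control siRNA groups were apart, with dDAVP the lower, and between siRNAs of 1 treatment the groups overlapped. Tnfaip3 fell by 0.26 on the log2 scale with dDAVP in control siRNA cells (SE 0.07, adjusted p = 0.0121), a call that ended when control siRNA dDAVP replicate 1 (adjusted p = 0.0576) or vehicle replicate 3 of the same siRNA (adjusted p = 0.0604) was left out. With TAZ siRNA the log2 fold change was -0.12 ± 0.07 (adjusted p = 0.335), and the difference between the responses was 0.15 (adjusted p = 0.74). Nfkbia and Tnfaip3, both feedback inhibitors, thus had log2 fold changes of opposite sign to dDAVP with either siRNA.

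Birc3 encodes cIAP2, a ubiquitin ligase of the receptor complexes (gene identifier 11796, chr9:7847468-7873205). Birc3 was at 0.151, 0.403 and 0.243 CPM with TAZ siRNA and dDAVP, at 0.258, 0.456 and 0.226 with TAZ siRNA and vehicle, at 0.618, 0.494 and 0.455 with control siRNA and dDAVP, and at 0.478, 0.488 and 0.292 with control siRNA and vehicle. In all 4 groups it rested on few counts (39, 58, 91 and 67 summed over the 3 libraries, in the same order of groups). With dDAVP the 3 TAZ siRNA libraries lay below the 3 control siRNA libraries, at a fold of 0.501 (95% interval 0.278 to 0.902), which did not pass the threshold (adjusted p = 0.131). The 39 against 91 counts behind it have a ratio of 0.496 with a counting interval from 0.331 to 0.729, which covers counting error only. No comparison called Birc3. Its neighbour Birc2, 10336 bases away and encoding the related cIAP1, averaged 44.4, 45.6, 46.0 and 48.8 CPM in the 4 groups and was not called in any comparison either.

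Nod2, which encodes an intracellular sensor of bacterial muramyl dipeptide that signals to NF-kappaB through RIPK2, had the highest dDAVP response of the members (gene identifier 257632, chr8:88647315-88688474). Nod2 was at 8.56, 9.49 and 9.68 CPM with TAZ siRNA and dDAVP and at 3.11, 3.16 and 2.87 with TAZ siRNA and vehicle. It was at 14.2, 14.7 and 13.9 CPM with control siRNA and dDAVP and at 3.40, 3.72 and 3.37 with control siRNA and vehicle. The 4 groups did not overlap. The response to dDAVP was 1.60 ± 0.09 on the log2 scale with TAZ siRNA (adjusted p = 7.66e-10), a fold of 3.03 with a 95% interval from 2.67 to 3.43. It was 2.03 ± 0.08 with control siRNA (adjusted p = 1.38e-11), a fold of 4.09 with an interval from 3.62 to 4.63. Nod2 ranked 83 from the top of 15932 genes by fold with TAZ siRNA and 51 with control siRNA.

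In dDAVP, Nod2 with TAZ siRNA fell by 0.63 on the log2 scale against control siRNA (SE 0.08, adjusted p = 4.97e-05), to 0.646 of the control siRNA level (95% interval 0.578 to 0.723). In vehicle the ratio was 0.874 (0.763 to 1.00), with the TAZ siRNA libraries all below the control siRNA libraries but no call (adjusted p = 0.251). The difference between the dDAVP responses was -0.43 ± 0.12 on the log2 scale, a ratio of 0.740 with an unadjusted interval from 0.620 to 0.882, and it did not pass adjustment over all genes (adjusted p = 0.273, and from 0.149 to 0.561 over the alternatives). The dDAVP calls of Nod2, and its siRNA call in dDAVP, held in every alternative run. Nod1, the sensor of another bacterial peptidoglycan fragment, had a log2 fold change of 1.04 ± 0.22 with dDAVP in TAZ siRNA cells (adjusted p = 0.00352), while Ripk2, the kinase adaptor of both sensors, fell by 0.33 there (adjusted p = 0.0339). The Ripk2 call was lost without any 1 of the 6 compared libraries other than TAZ siRNA vehicle replicate 2 (adjusted p from 0.0516 to 0.136). With control siRNA, neither gene was called for dDAVP. Nod1 averaged 1.47 CPM there with dDAVP and 0.950 with vehicle, and Ripk2 averaged 5.71 CPM with either treatment.

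The next gene after Nod2 on the chromosome is Cyld, 8403 bases away, which encodes a deubiquitinase that restrains NF-kappaB signalling. Cyld averaged 122 CPM with TAZ siRNA and dDAVP and 108 with TAZ siRNA and vehicle, and 129 CPM with control siRNA and dDAVP and 107 with control siRNA and vehicle. It rose with dDAVP by 0.17 on the log2 scale with TAZ siRNA (adjusted p = 0.00549) and by 0.27 with control siRNA (adjusted p = 5.82e-05).

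C3 encodes the central component of complement, made by tubule cells as well as the liver (gene identifier 12266, chr17:57203967-57228136). C3 was at 489, 578 and 501 CPM with TAZ siRNA and dDAVP and at 290.5, 260.4 and 252 with TAZ siRNA and vehicle. It was at 669, 670.1 and 605 CPM with control siRNA and dDAVP and at 273, 269 and 270.4 with control siRNA and vehicle. The 6 dDAVP libraries lay above all 6 vehicle libraries, and within dDAVP the TAZ siRNA libraries lay below those with control siRNA, while the vehicle groups overlapped. The response to dDAVP was 0.96 ± 0.06 on the log2 scale with TAZ siRNA (adjusted p = 3.77e-08) and 1.26 ± 0.06 with control siRNA (adjusted p = 9.68e-10). These are folds of 1.95 (95% interval 1.78 to 2.14) and 2.39 (2.18 to 2.62), which ranked 232 and 181 from the top of the tested genes.

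Against control siRNA, C3 with TAZ siRNA fell by 0.31 on the log2 scale in dDAVP (SE 0.06, adjusted p = 0.00388), a ratio of 0.806 (0.737 to 0.882). In vehicle the ratio was 0.989 (0.902 to 1.08, adjusted p = 0.923). The difference between the responses was -0.29 ± 0.09, a ratio of 0.816 with an unadjusted interval from 0.718 to 0.927 that did not pass adjustment over all genes (adjusted p = 0.32, and from 0.0678 to 0.549 over the alternatives). The calls of C3 held in every alternative run. The 8 immune markers, of which Csf1r carried most counts, summed to 42.6 to 44.7 CPM with TAZ siRNA and dDAVP, against 45.0 to 49.2 CPM with TAZ siRNA and vehicle, and to 32.9 to 37.1 CPM with control siRNA and dDAVP and 42.3 to 46.8 with control siRNA and vehicle. These sums were lower in each dDAVP group than in vehicle with the same siRNA. Since 1 gene carried most of the counts, the sums cannot measure immune cell content. The 7 intercalated cell markers, carried by Aqp6 and Rhcg, had higher sums with dDAVP. They summed to between 50.2 and 60.2 CPM in the TAZ siRNA dDAVP libraries against between 25.7 and 36.4 in those with vehicle, and to 72.5 to 73.6 CPM with control siRNA and dDAVP against 41.4 to 47.5 with control siRNA and vehicle. Of these 7, Atp6v1g3, Slc26a4 and Foxi1 were at 0 in all 4 groups, and Atp6v0d2 in all but control siRNA with dDAVP. Slc4a1 had counts in every group, and 2 of the 7 had enough counts to be tested. The 10 principal cell markers summed to between 2236 and 2368 CPM in the TAZ siRNA dDAVP libraries against between 1811 and 2016 in those with vehicle, and to 2476 to 2604 CPM with control siRNA and dDAVP against 1769 to 1879 with control siRNA and vehicle. The 8 markers of other nephron segments, of which 4 were tested, had lower sums with dDAVP. They summed to 206 to 217 CPM with TAZ siRNA and dDAVP against 251 to 264 with TAZ siRNA and vehicle. With control siRNA they summed to 209 to 226 CPM with dDAVP against 274 to 285 with vehicle. The part of these marker changes in the C3 and Nod2 results was not tested.

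Il1rn encodes the antagonist that occupies the interleukin-1 receptor without signalling (gene identifier 16181, chr2:24336860-24351491). Il1rn was at 8.31, 9.02 and 10.2 CPM with TAZ siRNA and dDAVP and at 6.78, 12.3 and 8.65 with TAZ siRNA and vehicle. It was at 8.70, 10.1 and 9.12 CPM with control siRNA and dDAVP and at 5.19, 4.61 and 5.24 with control siRNA and vehicle. The 3 libraries with control siRNA and vehicle lay below the other 9, which overlapped. The log2 fold change of dDAVP against vehicle was 0.89 ± 0.17 with control siRNA (adjusted p = 0.00118) and -0.01 ± 0.16 with TAZ siRNA (adjusted p = 0.976). That of TAZ siRNA against control siRNA was 0.88 ± 0.16 in vehicle (adjusted p = 0.00487) and -0.02 ± 0.16 in dDAVP (adjusted p = 0.955). Both calls use the same 3 libraries with control siRNA and vehicle, and both held in every alternative run.

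The response of Il1rn to dDAVP was a fold of 0.990 with TAZ siRNA (95% interval 0.785 to 1.25) and 1.85 with control siRNA (1.45 to 2.36). The difference between the responses was -0.90 ± 0.23 on the log2 scale, the lowest adjusted p of the members in this contrast, and it was not called by edgeR (adjusted p = 0.24). DESeq2 gave the same -0.90 with an adjusted p of 0.0151. Without TAZ siRNA vehicle replicate 1, the lowest of its group, the difference was -1.08 with an adjusted p of 0.0215, and over all alternatives the adjusted p ran from 0.0151 to 0.445. TAZ siRNA vehicle replicate 2, at 12.3 CPM, was the highest of the 12 libraries.

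**Figure D3:**
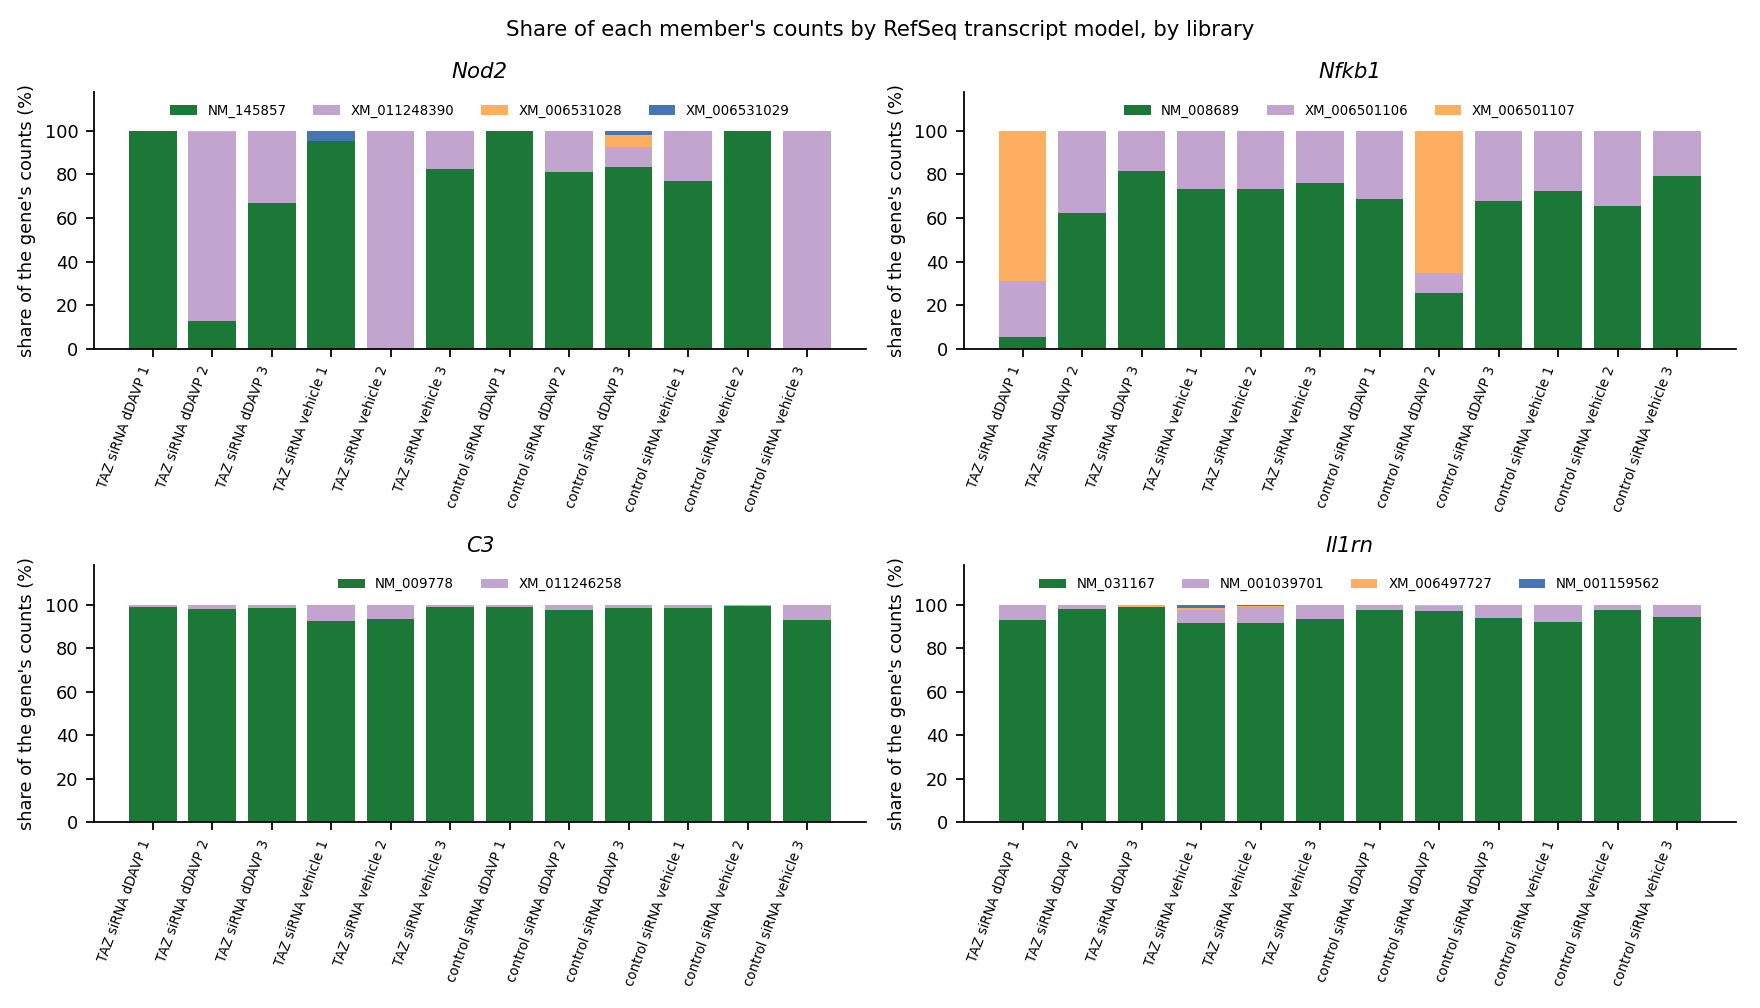
Share of each gene's counts, in percent, that the deposited transcript table gives to each RefSeq transcript model of Nod2, Nfkb1, C3 and Il1rn, with 1 stacked bar per library. C3 and Il1rn are nearly all 1 model, whereas the split of Nod2 and Nfkb1 jumps between replicates of a group.

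The deposited transcript counts put 97.4% of C3 counts on NM_009778 (92.6% to 99.1% by library) and 94.7% of Il1rn counts on NM_031167, the model whose start is the printed window (91.4% to 98.7%). The window of Il1rn therefore belongs to the transcript that held nearly all of its counts. Nfkbia has the single model NM_010907. Nfkb2 has 4 models, and NM_001177369, that of the printed window, held 35.0% of its counts (24.6% to 43.1% by library). The Nfkb2 model with the earliest start, XM_006526743, held 15.6% and had no window. For Nod2, NM_145857 held between 0% and 100% of counts by library, with 0% in TAZ siRNA vehicle replicate 2 and control siRNA vehicle replicate 3 and 100% in control siRNA vehicle replicate 2. For Nfkb1, XM_006501107 held 68.9% in TAZ siRNA dDAVP replicate 1, 65.3% in control siRNA dDAVP replicate 2 and at most 0.0204% in any other library. Since replicates of a group disagreed, the transcript split of these genes was not compared between groups, and only gene totals were tested.

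Likeness was described over the 12 libraries by Pearson's r of the log2 of CPM plus 0.5. Nod2 ran most closely with Aqp2 (0.995), Nipal1 (0.992) and Rassf10 (0.992). The Aqp2 means in both vehicle groups lay below the added 0.5 CPM, so its r depends on that constant. C3 ran with Adora1 (0.995), Sh3pxd2a (0.994) and Slc39a14 (0.994). For Nfkbia the closest were Rassf3 (0.963), Ndrg1 (0.963) and Ffar4 (0.962). All of these values rest on the same 12 libraries in 4 groups, so genes that differ between the groups in a like way correlate by that alone.

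The other genes of the pathway were described from 7 lists of 111 genes, of which 107 were in the table and 93 were tested. The lists were chosen with earlier results of these data known. Their shares of calls are therefore a description, and an excess over all tested genes is no test of the pathway. With dDAVP, 13 of the 93 were called higher and 5 lower with TAZ siRNA, and 15 higher and 6 lower with control siRNA. These are 19.4% and 22.6% of the 93, beside 10.8% and 19.2% of all tested genes. TAZ siRNA against control siRNA gave 7 higher and 5 lower in dDAVP and 13 higher and 1 lower in vehicle, which are 12.9% and 15.1%, beside 10.7% and 6.3% of all tested genes. The median log2 fold change over the 93 was 0.01 and 0.06 for dDAVP with TAZ siRNA and with control siRNA, and 0.02 and 0.04 for TAZ siRNA in dDAVP and in vehicle. Of 25 receptors and adaptors, 1 was higher and 2 lower for dDAVP with TAZ siRNA and 1 higher and 1 lower with control siRNA, which are 12% and 8% of them. Of 21 other targets, 6 were higher and 3 lower with TAZ siRNA and 7 higher and 2 lower with control siRNA, 42.9% in either case.

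**Figure D4:**
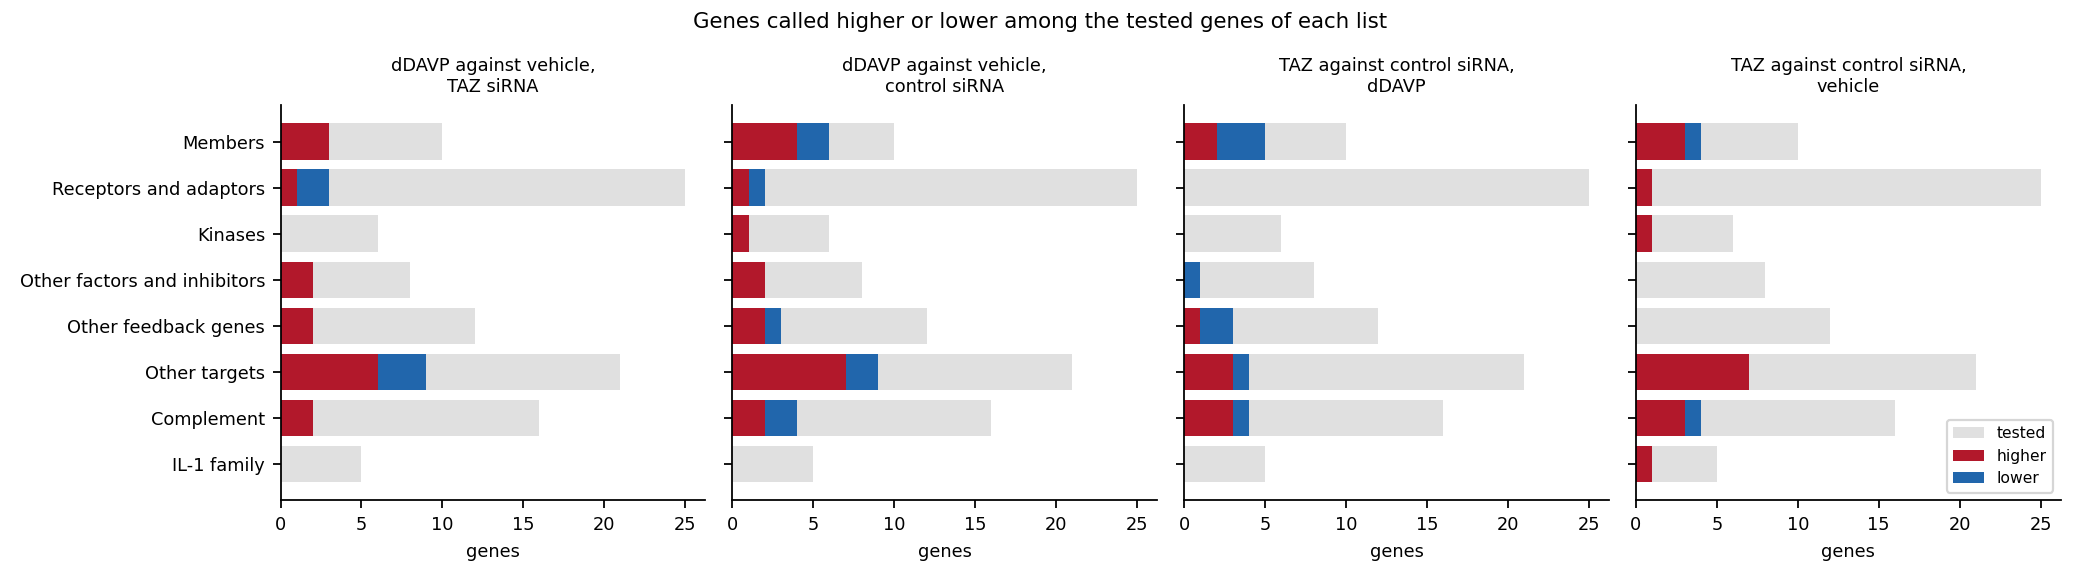
Number of tested genes (grey) and of genes called higher (red) or lower (blue) for the 10 members and the 7 lists, in the 4 comparisons. In vehicle, TAZ siRNA gave 13 calls higher and 1 lower over the 93 listed genes, where 3.19% of all tested genes were called higher and 3.11% lower. The lists were chosen with earlier results of these data known, so these counts are a description only.

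Of the 6 kinase genes, 0 were called for dDAVP with TAZ siRNA, 1 higher with control siRNA, and for TAZ siRNA 0 in dDAVP and 1 higher in vehicle. These are 0%, 16.7%, 0% and 16.7% of them, beside 10.8%, 19.2%, 10.7% and 6.3% of all tested genes. Traf3, an adaptor that restrains the alternative pathway, fell with dDAVP by 0.15 on the log2 scale with TAZ siRNA (adjusted p = 0.0165) and by 0.22 with control siRNA (adjusted p = 0.000346). The first of these was lost without TAZ siRNA dDAVP replicate 3 or vehicle replicate 2 (adjusted p = 0.05 and 0.0536). Tlr4, the receptor for bacterial lipopolysaccharide, rose by 0.22 (adjusted p = 0.0149) and Ikbkg, the scaffold of the IkappaB kinase, by 0.18 (adjusted p = 0.0215) with dDAVP in control siRNA cells. Leaving out 1 library ended the Tlr4 call for control siRNA dDAVP replicate 1 and vehicle replicates 2 and 3 (adjusted p up to 0.0919). It ended the Ikbkg call for dDAVP replicates 1 and 3 and the same vehicle replicates (up to 0.123). With TAZ siRNA in vehicle, Il1r1, the receptor that Il1rn blocks, rose by 0.15 (adjusted p = 0.0297) and the kinase gene Ikbke by 0.17 (adjusted p = 0.0395). The Il1r1 call was lost without any 1 of the 6 compared libraries other than TAZ siRNA vehicle replicate 3 (up to 0.132), and that of Ikbke without any other than control siRNA vehicle replicate 2 (up to 0.197).

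Among the other factors and inhibitors, Nfkbiz, an inducible nuclear IkappaB protein, averaged 106 CPM with TAZ siRNA and dDAVP and 73.7 with TAZ siRNA and vehicle, and 135 CPM with control siRNA and dDAVP and 78.3 with control siRNA and vehicle. It rose with dDAVP by 0.52 ± 0.04 on the log2 scale with TAZ siRNA (adjusted p = 1.58e-07) and by 0.78 ± 0.04 with control siRNA (adjusted p = 5.41e-10), and in dDAVP it fell by 0.35 with TAZ siRNA (adjusted p = 5.14e-05). Bcl3, a nuclear partner of p50 and p52 dimers, rose with dDAVP by 0.33 with TAZ siRNA (adjusted p = 0.0493, lost without any 1 library other than TAZ siRNA dDAVP replicate 3, up to 0.174) and by 0.52 with control siRNA (adjusted p = 0.0015). The feedback gene Ier3, an early response gene, rose by 0.46 (adjusted p = 0.00646) and 0.90 (adjusted p = 8.78e-06) in the same comparisons. In dDAVP, Ier3 was lower with TAZ siRNA by a log2 fold change of -0.33 (adjusted p = 0.0403), lost without any 1 library other than control siRNA dDAVP replicate 1 (up to 0.124).

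Of the remaining feedback genes, Tax1bp1, an adaptor of A20, fell by 0.13 with TAZ siRNA in dDAVP (adjusted p = 0.0465), a call lost without any 1 of the 6 compared libraries (from 0.0652 to 0.166). N4bp1, an inhibitor of signalling by receptor complexes, fell by 0.12 with dDAVP in control siRNA cells (adjusted p = 0.0113) and rose by 0.11 with TAZ siRNA in dDAVP (adjusted p = 0.0235). The siRNA call was lost without TAZ siRNA dDAVP replicate 1 or 2 or control siRNA dDAVP replicate 2 or 3 (up to 0.124).

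Of the inflammatory targets, Ptgs2, which encodes cyclooxygenase 2, rose with dDAVP by 0.63 ± 0.07 with TAZ siRNA (adjusted p = 1.01e-05) and by 1.13 ± 0.07 with control siRNA (adjusted p = 4.53e-09). The chemokine gene Cxcl5 averaged 29.8 ± 1.68 CPM with TAZ siRNA and dDAVP and 21.6 ± 5.04 with TAZ siRNA and vehicle, and 39.2 ± 0.552 CPM with control siRNA and dDAVP and 12.2 ± 1.28 with control siRNA and vehicle (SD, n = 3). It rose with dDAVP by 1.69 ± 0.13 in control siRNA cells (adjusted p = 4.06e-07), and with TAZ siRNA it rose by 0.83 in vehicle (adjusted p = 0.00202) and fell by 0.40 in dDAVP (adjusted p = 0.0489, lost without any 1 of the 6 compared libraries, from 0.0617 to 0.149). Cxcl2 rose by 0.56 with dDAVP in control siRNA cells (adjusted p = 0.0247), lost without control siRNA dDAVP replicate 1 or 3 or vehicle replicate 2 or 3 (up to 0.104).

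Ccl5 rose by 0.63 (adjusted p = 0.0143) and Ccl20 fell by 0.92 (adjusted p = 0.0351) with dDAVP in TAZ siRNA cells. The Ccl5 call was lost without TAZ siRNA dDAVP replicate 1 or vehicle replicate 2 or 3 (up to 0.113), and that of Ccl20 without any TAZ siRNA dDAVP replicate or vehicle replicate 2 (up to 0.234), the value without vehicle replicate 2 being -0.41. TAZ siRNA in vehicle raised Ccl20 by 1.28 (adjusted p = 0.00965, but 0.76 with an adjusted p of 0.0404 without TAZ siRNA vehicle replicate 2) and the adhesion molecule gene Vcam1 by 1.11 (adjusted p = 0.0101), the call of Vcam1 being lost without TAZ siRNA vehicle replicate 2 or control siRNA vehicle replicate 1 or 3 (up to 0.0809). In dDAVP, Cxcl10 rose by 0.27 with TAZ siRNA (adjusted p = 0.0402), lost without any 1 of the 6 compared libraries (from 0.0615 to 0.158). The cytokine gene Csf2 was called there as well (3.78 ± 1.17 on the log2 scale, adjusted p = 0.0464), on 28 counts with TAZ siRNA and 2 with control siRNA, a ratio of 16.2 with a counting interval from 4.08 to 140.2. Of the 28, 19 came from 1 library, the groups overlapped, and the call was lost without any 1 library other than TAZ siRNA dDAVP replicate 2 (up to 0.268), with a value of 6.397 without control siRNA dDAVP replicate 1.

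Of the 16 tested genes of the complement list, 2 were called higher for dDAVP with TAZ siRNA and 2 higher and 2 lower with control siRNA, and TAZ siRNA gave 3 higher and 1 lower in either treatment. For dDAVP these are 12.5% and 25% of them, beside 10.8% and 19.2% of all tested genes. For TAZ siRNA they are 25% in either treatment, beside 10.7% in dDAVP and 6.3% in vehicle. Cfb, which encodes factor B, the partner of C3 in the alternative pathway, averaged 6.40 CPM with TAZ siRNA and dDAVP and 2.89 with TAZ siRNA and vehicle, and 12.5 CPM with control siRNA and dDAVP and 4.27 with control siRNA and vehicle. It rose with dDAVP by 1.15 ± 0.10 on the log2 scale with TAZ siRNA (adjusted p = 4.78e-07) and by 1.55 ± 0.10 with control siRNA (adjusted p = 2.33e-09). TAZ siRNA lowered it by a log2 fold change of -0.97 ± 0.09 in dDAVP (adjusted p = 5.8e-06) and -0.56 in vehicle (adjusted p = 0.00392), so that Cfb, unlike C3, was called in vehicle too, a contrast between the genes that was not tested.

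For TAZ siRNA against control siRNA, Cd55, which encodes decay-accelerating factor, was higher by 0.47 in dDAVP (adjusted p = 0.000788) and by 0.57 in vehicle (adjusted p = 0.000407). In the same comparison Cd59a, which blocks the membrane attack complex, was higher by 0.28 in dDAVP (adjusted p = 0.0061). Other regulators on the list, chosen after their values were seen, were not called: in dDAVP the log2 fold change of TAZ siRNA against control siRNA was -0.12 for Cr1l (adjusted p = 0.11) and -0.05 for Cd46 (adjusted p = 0.92). Clu, which encodes the chaperone clusterin, rose by 0.31 with TAZ siRNA in vehicle (adjusted p = 0.00056) and with dDAVP by 0.19 with TAZ siRNA (adjusted p = 0.00862, and 0.0704 without TAZ siRNA dDAVP replicate 1) and by 0.29 with control siRNA (adjusted p = 0.000115). Masp1, a protease of the lectin pathway, fell by 1.08 with dDAVP in control siRNA cells (adjusted p = 5.76e-05). Of the 5 tested IL-1 family genes, the 1 called was Il1rl1, the interleukin-33 receptor, which rose by 1.13 with TAZ siRNA in vehicle (adjusted p = 0.0116, lost without TAZ siRNA vehicle replicate 2 or control siRNA vehicle replicate 3, up to 0.0738, and 0.75 without the first). Of the 12 genes of that list, 4 (Il36a, Il36b, Il36g and Il36rn) were not found under these symbols. Il1a, Il1b and Il1r2 had too few counts to be tested.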

How the data were processed

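Messenger RNA of mpkCCDc11 cells was sequenced in 12 libraries, 3 in each of 4 groups. Bowtie 0.12.2 and the builds mm8 and mm10 stand in the submitters' processing notes without a role, and the tool used for counting is not stated in the sources used here. Per the file headers, the authors deposited estimated counts per gene and per transcript, with TPM per gene and FPKM per transcript. Transcript counts of 2 to 20 did not equal whole products of FPKM and length (tolerance 0.05) in 85.6% of 157342 values, so the counts were taken as rounded estimates rather than tallies, and the test planned for counts was kept. The FPKM values deposited by the authors served this check only. Another 24 columns of values were not used.

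Counts were tested in R 4.3.3 with edgeR 4.0.16: filterByExpr (minimum count 10), TMM factors (0.988 to 1.01), 1 mean per group, robust quasi-likelihood F tests of 5 contrasts over 12 libraries, and Benjamini-Hochberg adjustment over 15932 genes (threshold 0.05). Tested genes held 99.98% of counts, with a biological coefficient of variation of 5.11%. Replicate libraries differed by more than sampling noise (chi-square/df 4.25 to 13.5). Errors of log2 fold changes are standard errors derived from the F statistic, and intervals are 95%. Adjusted p-values without a named tool are from edgeR; DESeq2 1.42.0, other scaling, no filter, only the compared groups, a replicate block and leaving out each library were alternatives. On simulated data of 15707 genes, 100% of changes of 1 and 82% of changes of 0.5 on the log2 scale were recovered for dDAVP against vehicle with TAZ siRNA. There, 17 genes without a set change were called as well. For the difference between the responses, 94% and 76% were recovered, with 7 such false calls. Changes were set only in genes with higher mean counts, so recovery of genes with few counts, such as Birc3, was not measured. TPM of the authors was used only to compare levels between genes. Coordinates are those of the deposited transcript table (mm10) and equalled RefSeq GRCm38.p6 for all 10 members.

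The members and lists were chosen with earlier results of these data known. Named genes were all members, Wwtr1, Aqp2, Avpr2, and in each comparison up to 3 called genes of each list with the largest absolute fold change. Closest genes were the 3 with the highest r, for members called in both dDAVP comparisons.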

Additional observations from a re-analysis of the deposited data

Results flagged for a closer look

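Cxcl5, a neutrophil chemokine listed among the NF-kappaB targets, was the listed gene whose dDAVP response differed between the siRNAs. The difference of its responses, TAZ siRNA minus control siRNA, was -1.23 ± 0.17 on the log2 scale (edgeR interaction contrast, adjusted p = 0.032). The libraries averaged 29.8 CPM with TAZ siRNA and dDAVP and 21.6 with TAZ siRNA and vehicle, and 39.2 CPM with control siRNA and dDAVP and 12.2 with control siRNA and vehicle. Leaving out 1 library ended the call for TAZ siRNA dDAVP replicates 1 and 3, TAZ siRNA vehicle replicate 3, control siRNA dDAVP replicates 2 and 3 and control siRNA vehicle replicates 1 and 3 (adjusted p from 0.0526 to 0.15), with the difference between -1.37 and -1.03 over the alternatives.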

How the results depend on the processing

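Of 596 member values under the alternatives, 555 kept their side of the threshold, 35 lost a call and 6 gained one. For other named genes the numbers were 582, 104 and 3 of 689. No called value changed sign, while 30 member values and 5 others that were not called did. The difference between the dDAVP responses called 5 genes, against 12 without the filter on low counts, 77 with DESeq2 and 3 to 16 without 1 library, and 0 members, against 1 with DESeq2 and 0 to 1 without 1 library. Without 1 library, TAZ siRNA against control siRNA in vehicle called 410 to 1435 genes (1004 with all) and 1 to 3 members (4 with all), and in dDAVP 1049 to 1625 genes (1711 with all) and 3 to 6 members (5 with all). Without 1 library, the dDAVP comparison with TAZ siRNA called 1118 to 1752 genes (1719 with all). That with control siRNA called 2103 to 2685 genes (3058 with all) and 4 to 6 members (6 with all). The cause of these shifts was not tested. Deviations of same-numbered libraries had correlations from -0.0825 to 0.225, not all over 0.1, so the numbers were not taken to pair the samples, though 7 of 12 libraries were closest to their own number, a hint from the data and not the design. With a replicate block, genes called were 1663 and 2983 for dDAVP with TAZ siRNA and with control siRNA, 1690 and 968 for TAZ siRNA in dDAVP and in vehicle, and 6 for the difference; members called were 3, 5, 6, 4 and 0. Under the block Relb was called with TAZ siRNA in dDAVP (adjusted p = 0.0377) and Rela was not with dDAVP in control siRNA cells (0.0612). A count of 3, the limit that a count of 0 allows, corresponds to 0.0486 to 0.0665 CPM per library, covering counting error only.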
